A study of Mus musculus with 12 samples.

Results

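The angiopoietins and angiopoietin-like proteins were represented by 8 genes, Angpt1, Angpt2, Angpt4, Angptl1, Angptl2, Angptl4, Angptl6 and Angptl7, chosen as the rows carrying these names in both expression tables, which list 43280 and 23930 names. All 8 were listed in both tables, and 6 of them reached a mean of 1 RPM in each, RPM being the share of a library's gene reads that fell on the gene, times 1000000. The family had been selected on its fold changes in both comparisons, which were already known, so the changes of its members are given below as descriptions, with no p-value.

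The RNA came from MEF cells, embryonic fibroblasts of C57BL/6 mice (embryonic day 13.5) that became immortal on serial passage, in 4 groups of 3 libraries. 2MUT cells stably expressed a FLAG-tagged, cancer-associated missense mutant of human IDH2 from a pMXs retrovirus, and Control cells carried the same retrovirus without an insert. Both had been selected with puromycin. In the other experiment, MEF cells were kept for 24 h with 300 μM of 2-HG, the metabolite made by mutant IDH enzymes, given in the study as its membrane-permeant octyl ester (2-HG(+)), or without it (2-HG(-)). The labels give DMSO to the 2-HG(-) cells, whereas the paper calls them non-treated. The paper combined the 2 experiments to look for genes that the mutant enzyme and the metabolite alter in common. Whether 2MUT was a clone or a selected pool is not given in the sources used here, and the mutant retrovirus was compared with the empty one, so that an effect of making any IDH2 protein and an effect of the mutation cannot be told apart. The replicates are labelled by number only, so the spread between them, and any p-value below, may be technical.

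Angiopoietins are secreted glycoproteins that bind the receptor tyrosine kinase Tek (Tie2) on endothelial cells. Angpt1, made mainly by mesenchymal cells around vessels, activates the receptor and steadies the vessel wall, whereas Angpt2, made mainly by endothelial cells, can block it. The angiopoietin-like proteins share the coiled-coil and fibrinogen-like domains but do not bind Tek, and several act on lipid metabolism instead, above all Angptl4, an inhibitor of lipoprotein lipase that is induced by fasting, by fatty acids through PPAR receptors, by glucocorticoids and by hypoxia.

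The members lie on 7 chromosomes of GRCm38 (GENCODE M21 annotation), Angpt4 and Angptl2 both on chromosome 2. The 3 angiopoietin genes have 9 exons each, Angpt1 at chr15:42424723-42676977 on the reverse strand, Angpt2 at chr8:18690263-18741562 on the reverse strand and Angpt4 at chr2:151911210-151945337 on the forward strand. Angptl4 spans chr17:33773750-33781830 with 7 exons, Angptl6 chr9:20873808-20879727 with 6 exons and Angptl7 chr4:148495183-148500460 with 5 exons, all on the reverse strand. Angptl1 at chr1:156838562-156861078 and Angptl2 at chr2:33216069-33247717 lie on the forward strand, with 5 exons in the longest coding transcript. Of the 8, Angpt2 lies within Mcph1, Angptl1 within Ralgps2, Angptl2 within Ralgps1 and Angptl7 within Mtor, each on the opposite strand and with no exon of a coding transcript shared with the host. Angptl6 overlaps A230050P20Rik on the opposite strand, which was listed at 0 in all 12 libraries, and Angpt1 overlaps the antisense gene Gm17473, which was listed at 0 in the 6 libraries of the 2MUT table. Whether the counting used strand is not given in the sources used here.

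Upstream sequence of RefSeq (GRCm38.p6) was available for 5 of the 8 members, Angpt4, Angptl1, Angptl2, Angptl6 and Angptl7. The 250 bases before the start are printed for the 3 of these whose groups did not overlap in either comparison. The window of Angpt4 is chr2:151910957-151911206 on the forward strand, that of Angptl6 chr9:20879711-20879960 on the reverse strand and that of Angptl7 chr4:148500463-148500712 on the reverse strand, each written 5′ to 3′ in the direction of the gene, with matches to the motifs named below in capitals.
Angpt4: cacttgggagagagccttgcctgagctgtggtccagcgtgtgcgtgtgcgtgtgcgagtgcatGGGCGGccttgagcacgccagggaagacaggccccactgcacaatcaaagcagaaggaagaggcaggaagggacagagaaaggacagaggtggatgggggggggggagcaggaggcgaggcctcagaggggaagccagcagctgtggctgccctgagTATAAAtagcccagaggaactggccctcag
Angptl6: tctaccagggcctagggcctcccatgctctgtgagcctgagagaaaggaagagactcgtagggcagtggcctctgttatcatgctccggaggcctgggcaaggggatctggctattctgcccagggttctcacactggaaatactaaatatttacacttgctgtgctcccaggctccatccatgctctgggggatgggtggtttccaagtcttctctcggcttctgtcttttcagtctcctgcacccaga
Angptl7: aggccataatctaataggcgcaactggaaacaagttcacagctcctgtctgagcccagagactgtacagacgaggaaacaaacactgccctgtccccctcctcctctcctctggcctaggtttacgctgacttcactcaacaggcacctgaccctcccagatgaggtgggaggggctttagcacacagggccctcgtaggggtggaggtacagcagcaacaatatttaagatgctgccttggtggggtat
Both strands of these windows were searched for 7 short motifs, whose frequency in all 32851 windows of the same length is given with each. The TATA box was searched as TATAAA, present in 12.4% of windows, and the GC box as GGGCGG, present in 32.7%. The core of the hypoxia response element was searched as ACGTG (16.6%), the AP-1 site as TGANTCA (6.75%), the core of the amino acid response element as TGATGNAA (3.45%), the nuclear receptor core as AGGTCA (14%) and the CCAAT box by its name (33.8%). The window of Angpt4 held the TATA box 30 to 25 bases before the start and the GC box 187 to 182 bases before it. The window of Angptl2 held the GC box on the other strand at 83 to 78 and at 8 to 3 bases before the start. No match was found in the windows of Angptl1, Angptl6 and Angptl7.

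The libraries of the 2MUT table held 6472439 to 7313602 reads and the others between 14959318 and 18363768, so that 3 reads correspond to 0.41 to 0.464 RPM in the former and 0.163 to 0.201 RPM in the latter. Fibroblast markers were present, 10 of 12 averaging 1 RPM or more in the 2MUT table and 10 of the 11 listed in the 2-HG table, with Lum and Prrx1 the exceptions in the former. Of 10 endothelial markers, 1 reached that level in the 2MUT table, Pecam1, and 0 in the 2-HG table, and Tie1 was at 0 in all 12 libraries. The mouse Idh2 entry stood at 70.9, 80.8 and 80.1 RPM in Control and at 42.6, 51.1 and 55.2 RPM in 2MUT, and at 186, 184 and 160.1 RPM in 2-HG(-) and 217, 254 and 244 RPM in 2-HG(+), lower in the one experiment and higher in the other with no overlap. Whether the mouse target reads the human transgene was not tested.

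Angptl4, the lipoprotein lipase inhibitor, was about 4 times as high in the IDH2 mutant cells and in the treated cells as in their controls. It was measured at 30.3, 41.2 and 35.0 RPM in the Control libraries and at 151, 158 and 136 RPM in 2MUT, on 205 to 289 and 976 to 1082 reads. In the 2-HG experiment it was at 13.9, 18.8 and 16.3 RPM in 2-HG(-) and at 60.0, 77.9 and 83.4 RPM in 2-HG(+). Every library with the mutant or with 2-HG lay above every library of its control group. The means were 35.5 ± 5.43 and 149 ± 11.2 RPM (SD, n = 3 each), a 4.18-fold difference, and 16.4 ± 2.42 and 73.8 ± 12.3 RPM, a 4.51-fold difference. On the log2(RPM + 1) scale, which understates the changes of low genes, the differences were 2.04 (SE 0.13) and 2.10 (SE 0.15), and they differed from each other by -0.06 (SE 0.21).

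Angptl6, a circulating growth factor of the family that has been linked to energy expenditure, was also higher in both. Its levels were 6.95, 7.69 and 9.3 RPM in Control and 18.8, 22.0 and 20 RPM in 2MUT. In 2-HG(-) it was at 0.98, 1.0 and 0.72 RPM, from 18, 15 and 12 reads, and in 2-HG(+) at 5.82, 5.77 and 6.93 RPM, from 88, 96 and 106 reads. Neither pair of groups overlapped. The ratios of the means were 2.54 (7.98 ± 1.2 to 20.3 ± 1.58 RPM) and 6.85 (0.901 ± 0.157 to 6.17 ± 0.654 RPM, SD, n = 3). The log2 differences were 1.25 (SE 0.17) and 1.92 (SE 0.15), the latter being 2.66 with 0.1 instead of 1 added to the RPM. Angptl6 reached the mean of 1 RPM in the 2-HG table only through the 2-HG(+) libraries.

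Angptl7, a secreted protein best known from the cornea and the trabecular meshwork of the eye, went in opposite directions. In the Control libraries it was near the limit of counting, at 0.444, 0.997 and 0.684 RPM from 3, 7 and 5 reads, and in 2MUT it was at 3.4, 3.22 and 3.85 RPM from 22, 22 and 28 reads. In 2-HG(-), by contrast, it was at 98.9, 117 and 111 RPM, and in 2-HG(+) at 20.6, 18.4 and 18.9 RPM. All 3 2MUT libraries lay above Control, and all 3 2-HG(+) libraries lay below 2-HG(-). The mean was 4.93-fold higher in 2MUT (0.708 ± 0.277 to 3.49 ± 0.326 RPM) and 5.65-fold lower in 2-HG(+) (109 ± 9.09 to 19.3 ± 1.13 RPM, SD, n = 3). The log2 differences were 1.40 (SE 0.24) and -2.44 (SE 0.11), and the former was 2.21 with 0.1 added. Angptl7 reached the mean of 1 RPM in the 2MUT table only through the 2MUT libraries.

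Angpt1, the activating ligand of Tek, was lower after 2-HG, and its groups overlapped in the other comparison. It was at 81.4, 66.6 and 73.8 RPM in 2-HG(-) and at 10.2, 10.9 and 13 RPM in 2-HG(+), so that the highest treated library lay below the lowest untreated one. The mean was 6.5-fold lower, from 74.0 ± 7.36 to 11.4 ± 1.44 RPM (SD, n = 3), and the log2 difference was -2.60 (SE 0.13). In Control it was at 26.2, 33.9 and 45.3 RPM and in 2MUT at 23.9, 27.1 and 27.9 RPM. Here the lowest Control library lay between 2MUT libraries, and the log2 difference of -0.37 (SE 0.18) became -0.56 without Control replicate 1 and -0.18 without Control replicate 3.

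Angpt4, a further Tek ligand, was lower in both. It was at 4.44, 7.12 and 5.88 RPM in Control and at 1.85, 2.49 and 1.51 RPM in 2MUT, from 30 to 50 and 11 to 17 reads. In 2-HG(-) it was at 6.15, 3.08 and 6.48 RPM and in 2-HG(+) at 1.85, 2.46 and 1.83 RPM. The groups did not overlap, although 2-HG(-) replicate 2 came close to the treated libraries. The means were 2.98-fold lower in 2MUT (5.81 ± 1.34 to 1.95 ± 0.495 RPM) and 2.56-fold lower in 2-HG(+) (5.24 ± 1.88 to 2.05 ± 0.361 RPM, SD, n = 3). The log2 differences were -1.20 (SE 0.24) and -0.99 (SE 0.23).

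Angptl2, which binds integrins and has been linked to inflammation of adipose tissue, overlapped between the groups of both experiments. It was at 18.9, 23.6 and 20.4 RPM in Control and at 19.6, 17.0 and 19.8 RPM in 2MUT, a log2 difference of -0.15 (SE 0.15). In 2-HG(-) it was at 84.7, 68.5 and 75.5 RPM and in 2-HG(+) at 50.6, 75.6 and 79.7 RPM, a difference of -0.17 (SE 0.17). The lowest value came from 2-HG(+) replicate 1, and without that library the difference was 0.03.

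The remaining members were barely measured. Angpt2, the antagonist of Tek, had 8, 1 and 0 reads in Control, 6, 1 and 4 in 2MUT, 6, 1 and 5 in 2-HG(-) and 0, 0 and 0 in 2-HG(+). The 0 reads of 2-HG(+) allow a level of up to 0.18 to 0.198 RPM, and the untreated libraries were at 0.067 to 0.327 RPM, so that no fold is given. Angptl1 was listed at 0 in all 12 libraries. Hadhb, an enzyme of mitochondrial fatty acid oxidation that most cells use, was listed at 0 in the 2MUT table too, so a listed 0 need not mean that a transcript was missing.

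**Figure D1:**
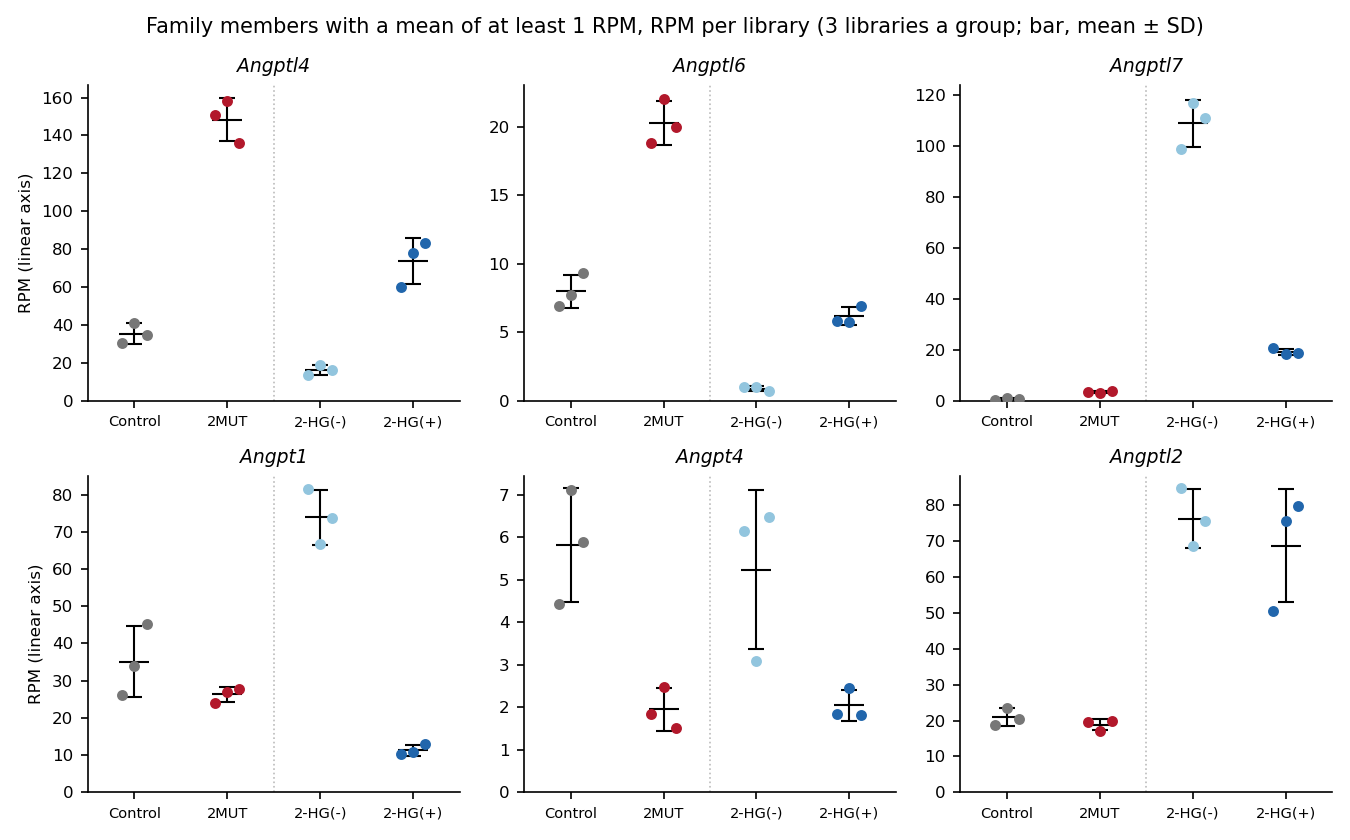
Level of each of the 6 members that averaged 1 RPM or more, in every library (points), on a linear RPM axis that starts at 0 in each panel, with the mean and SD of 3 libraries (bars); the dotted line separates the 2 tables. Angptl4 and Angptl6 lay above their controls in both experiments, Angpt4 lay below them, and Angptl7 stood at 98.9 to 117 RPM in 2-HG(-) against 0.444 to 0.997 RPM in Control.

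The 4 groups could also be ordered by level, although the 2 tables were made separately and the reads of a library are shared among other lists of names. The mean of Angptl7 ran from Control (0.708 RPM) through 2MUT (3.49) and 2-HG(+) (19.3) to 2-HG(-) (109), and no neighbours in that order overlapped. Angptl4 ran from 2-HG(-) (16.4 RPM) through Control (35.5) and 2-HG(+) (73.8) to 2MUT (149), again without overlap. For Angptl6 the order was 2-HG(-) (0.901 RPM), 2-HG(+) (6.17), Control (7.98) and 2MUT (20.3), with 2-HG(+) and Control almost touching at 6.93 and 6.95 RPM. Angpt1 was lowest in 2-HG(+) (11.4 RPM) and highest in 2-HG(-) (74.0), with 2MUT (26.3) and Control (35.1) overlapping in between. For Angpt4 the 2MUT and 2-HG(+) libraries overlapped at means of 1.95 and 2.05 RPM, as did 2-HG(-) and Control at 5.24 and 5.81. Angptl2 was at 18.8 and 21 RPM in the groups of the one table and at 68.6 and 76.2 RPM in those of the other, with overlap within each pair. Control and 2-HG(-) thus lay apart for Angptl7, Angptl4, Angptl6, Angpt1 and Angptl2 and overlapped for Angpt4, and the retrovirus, the selection, the culture and the table differ between them and cannot be told apart.

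The members differed in how far their replicates spread. Among the 6, the coefficient of variation ran from 5.88% for Angptl7 in 2-HG(+) to 39.1% for Angptl7 in Control, with 35.9% for Angpt4 in 2-HG(-) and 27.3% for Angpt1 in Control. A lower level in these bulk samples can come from fewer expressing cells or from less RNA per cell, which cannot be told apart.

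By limma, with the Benjamini-Hochberg adjustment over all genes tested and a threshold of 0.05, 3 of the 6 members tested in 2MUT were called higher (Angptl4, Angptl6, Angptl7) and 1 lower (Angpt4), where 16.5% of 11065 genes were called higher and 17.3% lower. In the 2-HG experiment 2 were called higher (Angptl4, Angptl6) and 3 lower (Angpt1, Angpt4, Angptl7), where 16.1% of 10384 genes were called higher and 16.7% lower. The groups did not overlap for 4 and 5 of the 6, against 47.5% and 46.3% of all genes tested. Angptl7 in the former and Angptl6 in the latter entered only through the group where they were higher. These counts follow from how the family was chosen, are no test of it and are not read further. From the 5th to the 95th percentile, the log2 differences of all genes ran from -0.93 to 0.93 in 2MUT and from -0.87 to 0.75 after 2-HG, with medians of 0.008 and -0.021. The 6 members had medians of 0.55 and -0.58.

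**Figure D2:**
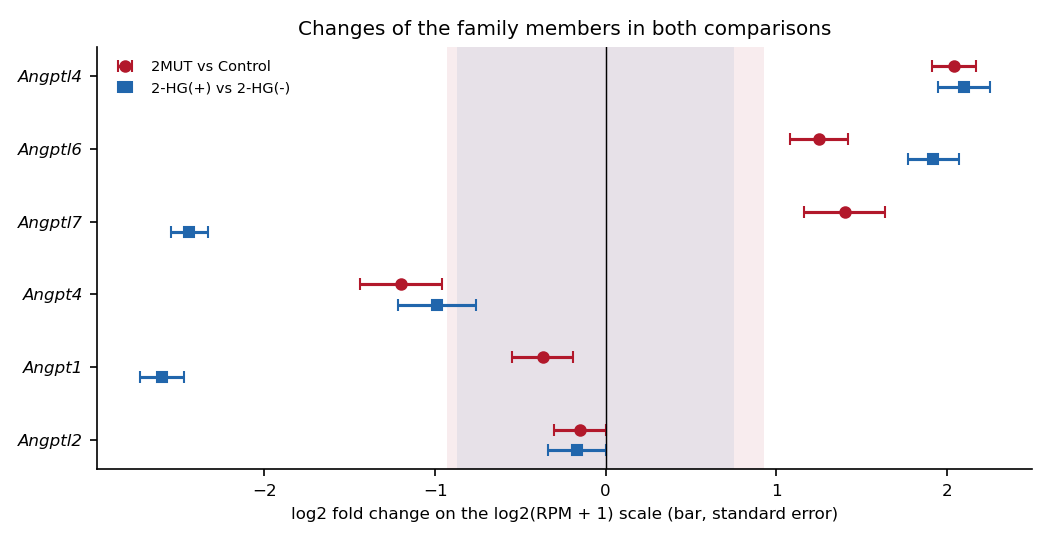
Log2 difference of each member on the log2(RPM + 1) scale in 2MUT against Control (circles) and in 2-HG(+) against 2-HG(-) (squares), with its standard error; the shaded bands span the 5th to the 95th percentile of all genes tested in each comparison. Angptl4 lay near 2 in both, Angptl7 on opposite sides of 0, and Angpt1 at -0.37 and -2.60.

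The differences between the 2 changes (2MUT minus 2-HG) were largest for Angptl7, at 3.84 (SE 0.21), and for Angpt1, at 2.23 (SE 0.24). For Angptl6 the difference was -0.67 (SE 0.22), for Angpt4 -0.21 (SE 0.34) and for Angptl2 0.02 (SE 0.23). All are log2 differences over the 12 libraries, given with no test. With 0.1 in place of 1 added to the RPM, the difference was -1.31 for Angptl6, and the 2 changes fitted with edgeR on the recovered reads lay -1.44 apart, so that its size depended on the scale. For Angptl7 it was 4.70 and 4.75.

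Genes of the pathways around the family were then examined, from 7 lists with 113 names, which had also been drawn up with results of these data known. In 2MUT, 17 of the 67 tested were higher and 8 lower by limma, 37.3% against 33.8% of all genes. After 2-HG, 9 of 68 were higher and 20 lower, 42.6% against 32.8%. The difference between the changes was tested for 67 genes: 20 had a larger log2 change in 2MUT and 9 a smaller one, where 19.9% and 19.5% of all 9612 genes did (39.4% in either direction).

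The receptors of the angiopoietins were hardly detected. Tek had 0 reads in the 6 libraries of the 2MUT table and at most 0.12 RPM in the 2-HG table, Tie1 was at 0 throughout, and Ptprb, the phosphatase that restrains Tek, had a value above 0 in 1 library only, 0.155 RPM in 2MUT replicate 1. Of 13 tested genes among the receptors, integrins and signalling partners, 4 were higher and 1 lower in 2MUT, with a median log2 change of 0.06, and 0 were higher and 5 lower after 2-HG, with a median of -0.29. Svep1, a large matrix protein that binds Tie1 and integrins, rose in 2MUT from 97.1, 112 and 92.6 to 196, 157 and 167 RPM (log2 change 0.78, SE 0.12, limma adjusted p = 0.00055). After 2-HG it fell from 41.9, 52.2 and 48.8 to 17.8, 17.0 and 16.4 RPM (-1.42, SE 0.12, limma adjusted p = 3.3e-05). The groups were apart in both experiments, and the difference between the changes was 2.20 (SE 0.17, limma adjusted p = 4.5e-07).

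Itgb1, the β1 integrin subunit, rose in 2MUT from 246 ± 45.5 to 427 ± 32.8 RPM (means ± SD, n = 3, as for the genes that follow, limma adjusted p = 0.00066). Shc1, an adaptor of receptor tyrosine kinases, fell there from 1262 ± 88.7 to 639 ± 10.8 RPM (limma adjusted p = 1.2e-05). Grb14, an adaptor that can bind Tek, fell after 2-HG from 72.8 ± 2.82 to 29.1 ± 1.01 RPM (limma adjusted p = 1.7e-05). Foxo1, the transcription factor that Tek signalling holds in check, was called higher in 2MUT, from 14.7 ± 2.63 to 23.4 ± 2.82 RPM (limma adjusted p = 0.014), and lower after 2-HG, from 28.5 ± 3.9 to 18.6 ± 2.34 RPM (limma adjusted p = 0.012). The former call was lost without 2MUT replicate 3 (log2 change 0.55 against 0.65, limma adjusted p = 0.064) and the latter without 2-HG(+) replicate 2 (-0.50 against -0.59, limma adjusted p = 0.05), and both were lost in an unmoderated test of all libraries (adjusted p = 0.072 and 0.067), whereas the difference between the changes, 1.23 (SE 0.23, limma adjusted p = 0.00071), passed with any library left out. Shc1 was called lower after 2-HG as well (-0.49, SE 0.15, limma adjusted p = 0.028), a call that 4 of the 6 fits without 1 library did not keep, with p-values up to 0.094. The calls that remain on this list, named after their values were seen, were Ptpn11, a tyrosine phosphatase, higher in 2MUT from 203 ± 12.8 to 255 ± 19 RPM (limma adjusted p = 0.022), and the kinase Pak1, lower after 2-HG from 95.2 ± 9.72 to 68.8 ± 3.59 RPM (limma adjusted p = 0.0092). That of Ptpn11 was lost in 3 of the 6 fits without 1 library, with p-values up to 0.11.

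Lipoprotein lipase, the enzyme that Angptl4 inhibits, went with Angptl4 in 2MUT and against it after 2-HG. Lpl rose in 2MUT from 34, 44.9 and 37.3 to 64.0, 68.5 and 70.2 RPM (log2 change 0.79, SE 0.13, limma adjusted p = 0.00088). It was low in the 2-HG experiment and fell from 3.16, 2.21 and 2.4 to 1.06, 0.842 and 0.523 RPM (-0.99, SE 0.18, limma adjusted p = 0.0023). The difference between these changes was 1.79 (SE 0.23, limma adjusted p = 3.8e-05). Vldlr, a receptor for lipoproteins rich in triglyceride, rose in both, from 61.2 ± 10.1 to 96.4 ± 7.96 RPM in 2MUT (0.66, SE 0.14, limma adjusted p = 0.0036) and from 5.32 ± 1.01 to 21.3 ± 4.34 RPM after 2-HG (1.81, SE 0.18, limma adjusted p = 7.4e-05), and rose more after 2-HG (difference -1.16, SE 0.24, limma adjusted p = 0.0017). The unmoderated test did not call it in 2MUT (adjusted p = 0.059).

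Furin, a protease that cleaves Angptl4 and its relatives, rose in 2MUT from 119 ± 18.1 to 229.7 ± 40.4 RPM (limma adjusted p = 0.00066) and stood at 28.2 ± 7.18 and 19.8 ± 3.86 RPM in 2-HG(-) and 2-HG(+), which did not pass (limma adjusted p = 0.098). Lrp1, an endocytic receptor, fell after 2-HG from 167 ± 18.1 to 105 ± 16 RPM (limma adjusted p = 0.0037, and 0.052 in the unmoderated test). Sel1l, which helps lipase leave the endoplasmic reticulum, was called higher after 2-HG (0.48, SE 0.15, limma adjusted p = 0.035), but 4 of the 6 fits without 1 library did not call it, with p-values up to 0.12. In all, 3 of 10 tested genes of the lipase list were higher and 0 lower in 2MUT (median log2 change 0.22), and 2 were higher and 2 lower after 2-HG (median -0.14).

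Of 11 tested factors that act on Angptl4, 2 were higher and 1 lower in 2MUT, and 1 was higher and 4 lower after 2-HG, with medians of 0.11 and -0.09. Hif1a, the oxygen-regulated factor, rose in 2MUT from 83.0, 84.3 and 76.6 to 267, 232 and 256 RPM (log2 change 1.62, SE 0.10, limma adjusted p = 1.3e-06). In the 2-HG experiment its groups overlapped, at 299 to 373 RPM in 2-HG(-) and 289.9 to 388 RPM in 2-HG(+) (0.02, SE 0.13, limma adjusted p = 0.94). The changes differed by 1.60 (SE 0.17, limma adjusted p = 6.6e-06).

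Ppargc1a, a coactivator of PPAR receptors, fell after 2-HG from 34.7 ± 2.73 to 19.7 ± 2.8 RPM (limma adjusted p = 0.0017). Its call in 2MUT (-0.37, SE 0.11, limma adjusted p = 0.024) was lost without Control replicate 2 (limma adjusted p = 0.068) or 2MUT replicate 2 (limma adjusted p = 0.11). Pparg, the PPAR receptor of fat cells, was the call in the higher direction after 2-HG, from 2.23, 0.936 and 1.26 to 3.04, 3.97 and 3.59 RPM (log2 change 0.90, SE 0.20, limma adjusted p = 0.008, and 0.07 in the unmoderated test), and was at 2.36 ± 1.29 and 2.57 ± 0.708 RPM in Control and 2MUT (limma adjusted p = 0.74). It was named after its values were seen. The receptors Ppard and Nr3c1, the latter the glucocorticoid receptor, passed in neither, at 149.8 and 163 RPM and at 20.1 and 19.6 RPM in Control and 2MUT, and at 78.9 and 79.5 RPM and 158 and 149 RPM in 2-HG(-) and 2-HG(+). Rxra and Arnt, the partners of PPARs and of Hif1a, were called lower after 2-HG, by -0.36 and -0.46 on the log2 scale (limma adjusted p = 0.02 and 0.022), and each call was lost in 3 of the 6 fits without 1 library, with p-values up to 0.081 and 0.093. Smad3, which carries TGF-β signals, was called higher in 2MUT, from 3.73 ± 1.3 to 8.13 ± 2.48 RPM (limma adjusted p = 0.017), but not without 2MUT replicate 2 (limma adjusted p = 0.079). Epas1, a relative of Hif1a, was called lower after 2-HG, from 1.71 ± 0.0883 to 0.935 ± 0.0974 RPM (limma adjusted p = 0.026), but not in 5 of the 6 fits without 1 library, with p-values up to 0.086. Both were named after their values were seen.

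Among 16 tested targets of PPAR receptors, a group to which Angptl4 itself belongs, 4 were higher and 2 lower in 2MUT, and 3 were higher and 4 lower after 2-HG, with medians of 0.04 and -0.09. Cpt1a, the rate-limiting enzyme of fatty acid entry into mitochondria, rose in 2MUT from 82.9 ± 4.32 to 161 ± 4.66 RPM (limma adjusted p = 4.1e-05) and was at 126 ± 10.7 and 141 ± 8.95 RPM in 2-HG(-) and 2-HG(+) (limma adjusted p = 0.25). Ucp2, a mitochondrial carrier, fell in 2MUT from 774 ± 65.4 to 502 ± 11.6 RPM (limma adjusted p = 0.00036). Vnn1, a pantetheinase, fell in 2MUT from 11.4 ± 1.81 to 3.44 ± 0.927 RPM (limma adjusted p = 0.00046). Acadm, a medium-chain acyl-CoA dehydrogenase, fell after 2-HG from 172 ± 17.0 to 95.2 ± 12.6 RPM (limma adjusted p = 0.00076).

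Vnn1 fell after 2-HG as well, from 3.51 ± 0.52 to 0.714 ± 0.289 RPM (limma adjusted p = 0.00034), as did the fatty acid carrier Fabp4, from 6.79 ± 1.77 to 2.79 ± 0.398 RPM (limma adjusted p = 0.0024), both named after their values were seen.

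Several other calls on this list did not hold with each library left out. Slc25a20, a carrier of acylcarnitines, was called higher in 2MUT (log2 change 0.47, limma adjusted p = 0.02) but not without Control replicate 2, 2MUT replicate 2 or 2MUT replicate 3 (limma adjusted p = 0.061, 0.067 and 0.068). This carrier was named after its values were seen. Cpt2 in 2MUT (log2 change 0.65, limma adjusted p = 0.027) and Plin2, Acadl and Hadha after 2-HG (0.32, 0.32 and -0.28, limma adjusted p = 0.022, 0.034 and 0.042) were each lost in at least 4 of the 6 fits without 1 library, with p-values between 0.052 and 0.13. Fgf21, a secreted fasting hormone, was low but higher in both, at 1.48, 1.14 and 0 RPM in Control, 4.63, 2.05 and 4.4 RPM in 2MUT, 0.218, 0.735 and 0.42 RPM in 2-HG(-) and 5.95, 7.28 and 6.14 RPM in 2-HG(+) (limma adjusted p = 0.014 and 1.3e-05). It passed the filter of 1 RPM only through the group where it was higher, as did Lpl, Vnn1, Epas1 and Fgl1 after 2-HG and the marker Apoa1 in 2MUT, so that these genes had to differ to be tested. All 7 of these calls also passed by limma with no filter (adjusted p at most 0.028). The call of Fgf21 in 2MUT was lost without 2MUT replicate 1 or 3 (limma adjusted p = 0.061 and 0.058). It too was named after its values were seen. With Vldlr it made up the 2 genes of the 67 that were called higher in both comparisons, and 5 were called lower in both, Shc1, Ppargc1a, Vnn1, Klf9 and Tnn. Of all 9612 genes tested in both, 144 (1.5%) were called higher in both and 295 (3.07%) lower in both.

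The glucocorticoid receptor targets, which respond to another inducer of Angptl4, were 3 higher and 2 lower of 8 tested in 2MUT, and 1 higher and 3 lower after 2-HG, with medians of -0.09 and -0.12. Dusp1, a phosphatase that inactivates MAP kinases, rose in 2MUT from 22.9, 27.6 and 28.0 to 201, 205 and 187 RPM (log2 change 2.87, SE 0.12, limma adjusted p = 8.1e-08), and its groups overlapped after 2-HG (-0.05, SE 0.16, limma adjusted p = 0.83). Fkbp5, a chaperone partner of the receptor, rose after 2-HG from 31.0 ± 5.71 to 65.2 ± 7.92 RPM (limma adjusted p = 0.00074) and was at 18.6 ± 3.03 and 13.2 ± 1.78 RPM in Control and 2MUT (limma adjusted p = 0.064).

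Klf9, a transcription factor, fell in 2MUT from 311 ± 23.5 to 217 ± 4.81 RPM (limma adjusted p = 0.0015), and after 2-HG its call (-0.44, limma adjusted p = 0.011) was lost without 2-HG(+) replicate 2 (limma adjusted p = 0.056). Sgk1, a kinase, fell in 2MUT from 1014 ± 129 to 748 ± 51.5 RPM (limma adjusted p = 0.0092, and 0.086 in the unmoderated test). The metallothionein Mt1 rose in 2MUT from 3432 ± 426 to 4757 ± 389.9 RPM (limma adjusted p = 0.0056, and 0.074 in the unmoderated test) and fell after 2-HG from 1162 ± 132 to 634 ± 63.0 RPM (limma adjusted p = 0.00051).

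**Figure D3:**
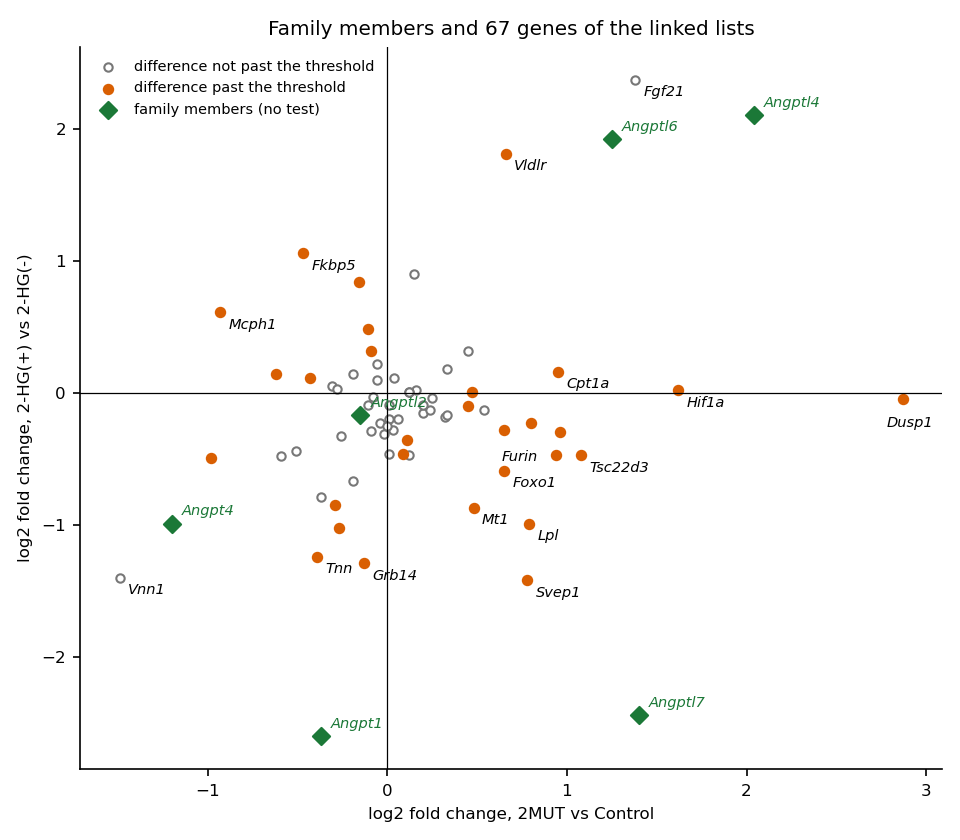
Log2 change in 2MUT against Control (horizontal axis) and in 2-HG(+) against 2-HG(-) (vertical axis) of the 6 tested members (diamonds, no test) and of the 67 pathway genes tested in both; filled circles passed the limma test of the difference between the changes. Svep1, Lpl, Foxo1 and Mt1 lie right of and below 0, Mcph1 left of and above it, and Dusp1 and Hif1a far to the right near a vertical value of 0.

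Few other genes with a fibrinogen-like domain were measured. Of 3 tested in 2MUT, 0 were higher and 1 was lower, and of 4 tested after 2-HG, 0 were higher and 2 lower. Tenascin N (Tnn), a matrix protein, fell after 2-HG from 36.5, 32.4 and 51.3 to 16.1, 16.2 and 16 RPM (log2 change -1.24, SE 0.16, limma adjusted p = 0.00044). Its call in 2MUT (-0.39, SE 0.13, limma adjusted p = 0.035) was lost in 5 of the 6 fits without 1 library, with p-values up to 0.12. Fgl1, which stood at 2.25 ± 0.391 RPM in 2-HG(-) and 0.13 ± 0.116 RPM in 2-HG(+) (limma adjusted p = 0.00013), was the other call, passed the filter only through 2-HG(-) and was named after its values were seen.

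Of the 6 genes that host a family member in an intron, in mouse, 1 was higher and 1 lower in 2MUT, and 2 were higher and 0 lower after 2-HG. Mcph1, the host of Angpt2 and a gene of chromosome condensation, fell in 2MUT from 105, 92.4 and 118 to 59.8, 50.1 and 53.8 RPM (limma adjusted p = 0.00024) and rose after 2-HG from 20.5, 28.7 and 26.1 to 38.6, 41.7 and 35.0 RPM (limma adjusted p = 0.0099, and 0.068 in the unmoderated test). Ralgps2, the host of Angptl1, rose after 2-HG from 15.2 ± 2.79 to 27.8 ± 2.14 RPM (limma adjusted p = 0.0024) while Angptl1 stayed listed at 0. Mtor, the host of Angptl7, went the same way as Angptl7 in 2MUT, from 68.0 ± 9.11 to 92.9 ± 6.0 RPM (limma adjusted p = 0.016, and 0.069 without 2MUT replicate 3), and was at 28.6 ± 4.5 and 26.6 ± 3.93 RPM in 2-HG(-) and 2-HG(+) (limma adjusted p = 0.64), where Angptl7 was 5.65-fold lower. Ralgps1, the host of Angptl2, passed in neither comparison (limma adjusted p = 0.73 and 0.17).

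**Figure D4:**
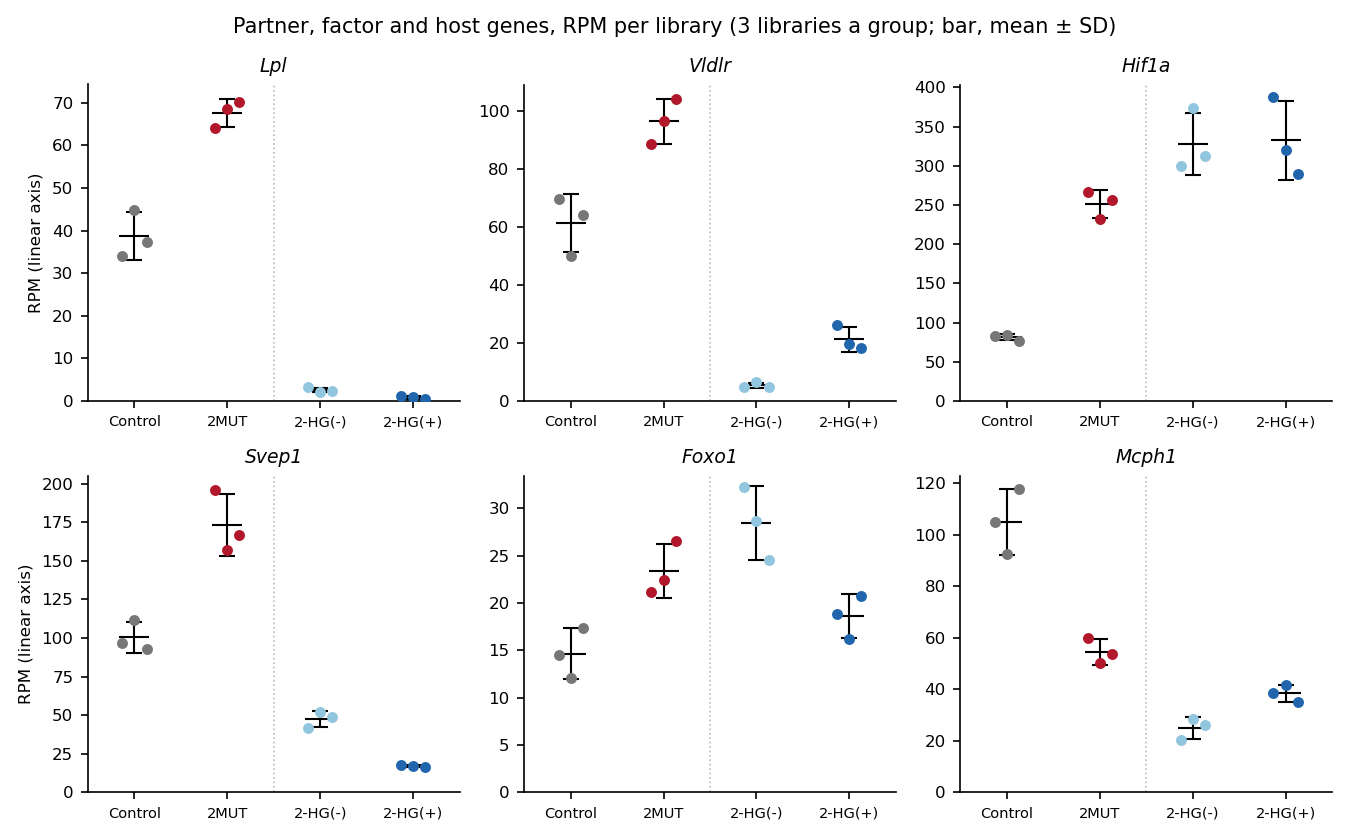
Level of Lpl, Vldlr, Hif1a, Svep1, Foxo1 and Mcph1 in every library (points) on linear RPM axes that start at 0, with the mean and SD of 3 libraries (bars); the dotted line separates the 2 tables. Lpl fell from 2.59 to 0.808 RPM on average after 2-HG, far below its 38.7 RPM in Control, and Hif1a was lowest in Control, at 76.6 to 84.3 RPM.

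Some markers of other cell types moved with each comparison. The sum of 10 endothelial markers was 1.09 to 2.14 RPM in Control and 2.34 to 4.17 RPM in 2MUT, with Esam, Tek and Tie1 at 0, and that of the 5 macrophage markers listed was 19.8 to 23.7 and 40.8 to 51.8 RPM. The latter came mostly from Cd14, which rose from 12.2 ± 2.24 to 38.5 ± 5.6 RPM (limma adjusted p = 6.5e-05), while the leukocyte marker Ptprc had at most 0.142 RPM. The sum of the 5 hepatocyte markers was at most 0.137 RPM in Control and 1.54 to 3.95 RPM in 2MUT, mainly from Apoa1, which had 0 RPM in the 3 Control libraries and passed the filter only through 2MUT (limma adjusted p = 0.0012), with Alb at 0. The 7 pericyte and smooth muscle markers, the cells best known for Angpt1, summed to 145 to 166 and 109 to 131 RPM, with Rgs5 and Abcc9 at 0, and the 6 adipocyte markers to at most 1.39 RPM. The pericyte sum came mostly from Notch3, at 139 ± 12.5 and 109.6 ± 10.7 RPM, called lower in 2MUT (limma adjusted p = 0.039). That call was lost, among other fits, without Control replicate 2 or 2MUT replicate 1 (limma adjusted p = 0.12 and 0.16). Mcam and Cspg4 did not pass in 2MUT (limma adjusted p = 0.11 and 0.3). In the 2-HG experiment the endothelial sums were 0.6 to 1.54 and 0.727 to 1.2 RPM, the macrophage sums 25.6 to 26.8 and 22.1 to 26.9 RPM, the pericyte sums 32.2 to 45.7 and 37.0 to 40.5 RPM, and the adipocyte and hepatocyte sums at most 0.48 RPM. Within these sums the pericyte marker Mcam was called higher after 2-HG, from 5.18 ± 1.01 to 10.1 ± 1.43 RPM (limma adjusted p = 0.0038), and the macrophage marker Cd68 lower, from 12.4 ± 1.25 to 8.46 ± 1.01 RPM (limma adjusted p = 0.021), the latter not in 3 of the 6 fits without 1 library. The summed fibroblast markers were 15202 to 17180.3 and 13514 to 13933 RPM in Control and 2MUT, and 21894 to 23544 and 15457 to 16546 RPM in 2-HG(-) and 2-HG(+). Within this sum single markers fell further, in 2MUT Col3a1 from 144 ± 12.3 to 28 ± 3.71 RPM, Thy1 from 80.4 ± 2.63 to 24.2 ± 4.78 RPM and Vim from 3109.9 ± 337 to 1265 ± 68.4 RPM (limma adjusted p = 5.5e-07, 1.4e-05 and 4.1e-06), while Fn1 was called higher (limma adjusted p = 0.011, and 0.053 without 2MUT replicate 3). After 2-HG, Col3a1 fell from 477 ± 31.8 to 186 ± 14 RPM and Pdgfrb from 307 ± 10.4 to 106 ± 3.83 RPM (limma adjusted p = 1.3e-05 and 3.3e-06), whereas Thy1 was called higher, from 2.76 ± 0.209 to 5.23 ± 1.43 RPM (limma adjusted p = 0.014, and 0.072 in the unmoderated test), and Col1a1, Vim, Fn1 and Twist1 did not pass (limma adjusted p = 0.095, 0.12, 0.57 and 0.2). The part of these markers in the members' values was not tested.

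Finally, genes whose levels moved most like a member's were sought over the 12 libraries, for the 3 members with at least 10 RPM in the higher group of both tables. Pearson's correlation of log2(RPM + 1), centred on the mean of each table, was computed against 6986 genes and is given as a description, since libraries of a group share their condition and those of a table its design and depth. Angptl4 was followed most closely by Cers2, a ceramide synthase (r = 0.973), Clptm1l (0.963) and Adpgk, an ADP-dependent glucokinase (0.959). The log2 changes of Cers2 were 0.81 in both comparisons, smaller than those of Angptl4. Angpt1 was followed by Sned1, a matrix protein (0.987), Gbp7, an interferon-induced GTPase (0.986), and Inpp5k, an inositol phosphatase (0.985). Sned1, at 257 ± 29.5 and 203 ± 19.6 RPM in Control and 2MUT, went from 66.3 ± 4.24 to 11.4 ± 1.19 RPM after 2-HG, and 45 genes reached r of 0.95 with Angpt1, against 9 with Angptl4 and 0 with Angptl2. For Angptl2 the closest were Il34 (0.886), Agap3 (0.879) and Lnx2 (0.866).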

How the data were processed

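The authors prepared Ion AmpliSeq libraries, which amplify 1 short target per transcript. Alignment was with TMAP and counting with the AmpliSeqRNA plug-in. Per experiment, 1 table of RPM was deposited. Values are compared only within a gene, apart from the sums of cell type markers, in which the highest genes weigh most. All values were whole multiples of 1 read (100.0% in every library, within rounding), and whole reads were recovered from the deposited RPM. No column was left without a sample (0). The members and gene lists were chosen with earlier results of these data known, so the members' calls are only counted beside the background and no p-value is given for them.

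Tests used limma 3.58.1 (R 4.3.3) on log2(RPM + 1), with a trend, for genes averaging 1 RPM or more over the 6 libraries of a table, adjusted by Benjamini-Hochberg at 0.05. The difference between the changes was tested over 12 libraries. Named genes are the 8 members, up to 4 called genes per list and comparison with the largest log2 change and a higher group of 10 RPM or more, and the 3 genes most like a member with that level in both tables. Alternatives were 0.1 added before the logarithm, a filter at 10 RPM or none, quantile normalization, an unmoderated per-gene test, the replicate number as a block, each library left out, and edgeR 4.0.16 and DESeq2 1.42.0 on the recovered reads. On simulated data, limma recovered 92 of 100 genes changed by 1 on the log2 scale and 98 of 99 changed by 2 for 2MUT, with 10 of 10870 unchanged genes called, and 99 of 100, 97 of 97 and 20 of 10178 for 2-HG. Loci come from GENCODE M21 and upstream sequences from RefSeq. Tables were handled with pandas 2.3.3 and plots drawn with matplotlib 3.10.9. Read limits cover counting error only. Other called list genes are only counted, unless the text says that they were named after their values were seen. A further gene is not reported here.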

Additional observations from a re-analysis of the deposited data

Results flagged for a closer look

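Angptl7 had log2 changes of 1.40 in 2MUT and -2.44 after 2-HG, with every library of each experiment on its own side of the controls, and the difference was not tested. For 5 pathway genes named above, calls in opposite directions went with a limma test of the difference between the changes (2MUT minus 2-HG) over 12 libraries. These were Svep1 (2.20, adjusted p = 4.5e-07), Lpl (1.79, adjusted p = 3.8e-05), Mt1 (1.35, adjusted p = 3.7e-05), Foxo1 (1.23, adjusted p = 0.00071) and Mcph1 (-1.53, adjusted p = 3.8e-05). In the unmoderated test, the calls of Mt1 in 2MUT and of Mcph1 after 2-HG were lost (adjusted p = 0.074 and 0.068), as were both of Foxo1 (adjusted p = 0.072 and 0.067). In each of the 5, all 3 libraries of 2MUT lay on one side of Control and all 3 of 2-HG(+) on the other side of 2-HG(-). A further gene, Tsc22d3, a glucocorticoid target named after its values were seen, showed the same pattern at under 10 RPM (1.55, limma adjusted p = 0.00059). Its call in 2MUT was lost in the unmoderated test (adjusted p = 0.053). After 2-HG its call was lost in 4 of the 6 fits without 1 library. It was also lost by limma with no filter, quantile normalization or the replicate block (adjusted p = 0.083, 0.15 and 0.075) and by DESeq2 (adjusted p = 0.072). Of the 5, Lpl was also under 10 RPM in the 2-HG experiment, at 2.59 and 0.808 RPM, and passed the filter there only through 2-HG(-).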

How the results depend on the processing

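The directions of the members' changes were kept under every alternative that gave a value, except Angptl2 after 2-HG, at 0.03 without 2-HG(+) replicate 1. Sizes of low members depended on the added value. Angpt4 in 2MUT was at -1.53 with 0.1 added, -1.57 with edgeR and -1.57 with DESeq2. Angptl7 in 2MUT was at 2.21, 2.27 and 2.30, and Angptl6 after 2-HG at 2.66, 2.78 and 2.79, and at 2.14 with quantile normalization. With a filter at 10 RPM, 0 members were called lower in 2MUT and 1 higher after 2-HG, since Angpt4, Angptl6 or Angptl7 were no longer tested. Without a filter, 4 members were called lower after 2-HG, where 1715 of all genes were called lower. Angpt2 was among the 4, on 6, 1 and 5 reads against 0, 0 and 0, and no change is read from it. The counts of members follow from how the family was chosen and are no test of it. Leaving out a library, 1 to 2 members were called lower in 2MUT, the second being Angpt1 without Control replicate 1.

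The unmoderated test called 1021 genes higher and 1223 lower in 2MUT and 1098 and 1139 after 2-HG. Of the pathway genes it called 8 higher and 5 lower in 2MUT and 5 higher and 16 lower after 2-HG. It called 2 members lower after 2-HG instead of 3, Angpt4 no longer among them. With edgeR on the recovered reads, 1818 genes were higher and 1947 lower in 2MUT and 1794 and 1752 after 2-HG. Leaving out a library, 11 to 17 pathway genes were higher in 2MUT, fewest without 2MUT replicate 3, and 13 to 17 were lower after 2-HG, fewest without 2-HG(+) replicate 2. Of the named pathway genes, 12 of 20 calls in 2MUT, 9 of 20 after 2-HG and 20 of 25 for the difference held under every alternative run for them, and 0 changed direction. The unmoderated test, edgeR and DESeq2 were not run as tests of the difference.

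Deviations of libraries with the same replicate number had correlations of 0.103, 0.0935 and 0.0504 in the 2MUT table. In the 2-HG table they were -0.548, -0.189 and 0.0645. Deviations from a mean of 3 libraries are tied to each other, so these values cannot decide whether the numbers pair samples. In the 2-HG table some libraries of different number did deviate together, 2-HG(-) replicate 2 with 2-HG(+) replicate 1 (0.565) and 2-HG(-) replicate 1 with 2-HG(+) replicate 3 (0.512), and 2-HG(-) replicate 2 deviated against 2-HG(+) replicate 3 (-0.502). With the replicate number as a block, 1911 genes were higher and 1987 lower in 2MUT and 1217 and 1286 after 2-HG, and the counts of members called were 3 and 1 in 2MUT and 2 and 3 after 2-HG, as without it. Members under about 10 reads a library, Angpt2 and Angptl7 in Control, are limited by depth.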

Other observations

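Angptl8, a small hepatic and adipose relative linked to the control of lipoprotein lipase, appears in the 2MUT table under its older symbol Gm6484. It had 1, 1 and 0 reads in Control and 9, 9 and 8 reads in 2MUT, so that all 3 2MUT libraries lay above Control at 1.39, 1.32 and 1.1 RPM, and its mean was too low for the test. In the 2-HG table, as Angptl8, it had 2, 0 and 1 reads in 2-HG(-) and 1, 1 and 0 in 2-HG(+). This gene was looked at after the values of the family were known.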
